A study of Mus musculus with 24 samples.

Results

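The transcripts described here encode the subunits of the transcription factor NF-kB and the inhibitors that hold it back. They were chosen by name, with earlier results of these data known, as the 5 subunit genes Nfkb1, Nfkb2, Rel, Rela and Relb and the 5 inhibitor genes Nfkbia, Nfkbie, Nfkbiz, Bcl3 and Tnfaip3. All 10 were found by the gene name that the array files give a probe, and 14 of the 41174 probes other than controls carry one of these names. Nfkb1 has 4 probes and Rela has 2, and the brightest probe of a gene, by its mean over the 24 arrays, stands for it. The cells were Ku70–/– mouse embryonic fibroblasts, which lack a protein of the nonhomologous end joining of broken DNA, and all groups, controls included, carry this deficiency, so that no wild-type cells were compared. Each group holds 3 arrays, which the Methods call biological replicates, all of this 1 cell line. The first set of 15 arrays holds untreated cells (labeled 4 hr), cells exposed for 1 hr to 20 mM of the oxidizing agent KBrO3 with RNA taken at 4 or 24 hr, and cells given KBrO3 together with 150 μM bisphenol A (BPA), which was added before KBrO3 and left on until sampling at 4 or 24 hr. The second set of 9 arrays holds its own untreated cells, which the labels give no time, and cells given 150 μM BPA alone and sampled at 4 or 24 hr. No untreated array is labeled as sampled at 24 hr, and the labels' 4 and 24 hr for BPA alone differ from the longer times in the Methods. The question was how these transcripts answered each agent, whether BPA acted on them alike with and without KBrO3, and how far they already differed between the untreated cells of each set.

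NF-kB acts as a dimer. Rela, Relb and Rel carry the domain that activates transcription, whereas Nfkb1 and Nfkb2 encode precursors that are cut to the p50 and p52 subunits. In resting cells the dimers are held in the cytoplasm by inhibitors such as IkB-alpha (Nfkbia) and IkB-epsilon (Nfkbie), which a kinase complex marks for destruction when cells meet cytokines, microbial products or some kinds of damage. The freed dimers enter the nucleus and switch on genes for chemokines, cytokines and survival proteins, and also the genes of their own inhibitors, which closes a negative feedback loop. Tnfaip3 encodes A20, an enzyme that edits ubiquitin and shuts the signal off upstream of the kinase. Bcl3 and Nfkbiz encode atypical, nuclear members of the inhibitor family that bind p50 or p52 and can either raise or lower transcription. Fibroblasts use this pathway to answer inflammatory signals with chemokines.

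The arrays measured Cy3 fluorescence in 1 color, and a level is the log2 processed signal of a probe minus the 75th percentile of its array, so that levels of different probes cannot be set against each other. Tests covered those probes that were well above background on all 3 arrays of at least 1 group, 27310 in the first set and 31810 in the other. From 57.7% to 68.1% of spots on a first-set array and from 76.4% to 79.4% on a second-set array were well above background, and the median residual SD of a probe was 0.106 and 0.318 respectively. All 8 fibroblast markers (among them Col1a1, Vim and Thy1) were well above background on every untreated array of both sets. Markers of other cell types were mixed. Of the leukocyte list, Ptprc was well above background on none of the 24 arrays, and Cd14, Lyz2, Cd68 and Cd3e were on all of them. The list differed between sets, since 5 of its 9 genes were on every untreated array of the first set and 7 on every one of the second. Of the 4 endothelial markers, Pecam1 was on none and Kdr and Tek on all 24, with Cdh5 on none of the first set and 8 of 9 arrays of the second. Of the 4 epithelial markers, Krt5 and Krt14 were on all 24, Cdh1 on none of the first set and all 9 of the second, and Epcam on 1 and 2. The part of other cell types in the results was not tested. The Xrcc6 probe, for the gene of Ku70, was also well above background on all arrays, with a mean level of 0.10 ± 0.10 (SD, n = 3) in the first untreated group. Its place relative to the deleted part is not given, so that it checks no label. In RNA from whole cultures, fewer cells of a kind and less RNA per cell cannot be told apart. A transcript was called when its Benjamini-Hochberg adjusted p over all probes tested was below 0.05 and its fold change was beyond 1.5, and every p below is a two-sided one of this kind from limma. For each comparison the share of all probes tested that was called in the same direction is given as the background.

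Since many members moved together, the 250 bases upstream of their starts were searched on both strands for the NF-kB consensus site. Entries in RefSeq (build GRCm38.p6) were matched for 7 of the 10 genes, with 10 start sites. At least 1 match lay in 7 of these 10 windows, compared with 7.25% of all 32851 windows of this length, and in 5 of the 7 genes, compared with 8.23% of all 27025 genes. Of the 23 windows of known NF-kB target genes 43.5% held one. The windows of the best known feedback inhibitors, 1 subunit gene with matches near its start, and those of Bcl3 and Rela, in which these letters did not occur, are shown 5′ to 3′ with matches in capitals. Overlapping matches form 1 run of capitals. Nfkbia lies on the minus strand (chr12:55492648-55492897), as do Tnfaip3 (chr10:19015411-19015660, the first of its 2 starts) and Bcl3 (chr7:19822756-19823005). Nfkbie (chr17:45555450-45555699), Nfkb2 (chr19:46304487-46304736, the first of its 3 starts) and Rela (chr19:5637291-5637540) lie on the plus strand.
Nfkbia: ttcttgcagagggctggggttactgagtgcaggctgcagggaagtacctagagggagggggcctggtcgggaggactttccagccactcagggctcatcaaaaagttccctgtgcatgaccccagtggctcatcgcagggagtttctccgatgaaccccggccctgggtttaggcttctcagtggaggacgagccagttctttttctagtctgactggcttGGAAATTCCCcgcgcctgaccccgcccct
Nfkbie: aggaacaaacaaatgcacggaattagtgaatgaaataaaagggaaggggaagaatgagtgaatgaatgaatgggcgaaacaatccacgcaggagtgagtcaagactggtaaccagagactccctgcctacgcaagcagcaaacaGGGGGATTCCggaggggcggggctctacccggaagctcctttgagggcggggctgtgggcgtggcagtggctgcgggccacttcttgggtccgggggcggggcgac
Tnfaip3: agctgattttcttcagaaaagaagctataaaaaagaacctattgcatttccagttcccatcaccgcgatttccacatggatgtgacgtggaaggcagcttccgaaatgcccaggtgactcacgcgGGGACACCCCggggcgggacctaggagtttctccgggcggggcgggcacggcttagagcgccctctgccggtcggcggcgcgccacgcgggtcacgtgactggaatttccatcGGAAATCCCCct
Nfkb2: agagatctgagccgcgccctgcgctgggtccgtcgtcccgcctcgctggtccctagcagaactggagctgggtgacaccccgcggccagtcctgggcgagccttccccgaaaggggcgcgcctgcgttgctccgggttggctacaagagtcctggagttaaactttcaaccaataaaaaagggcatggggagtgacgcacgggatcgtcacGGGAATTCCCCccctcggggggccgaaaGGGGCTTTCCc
Bcl3: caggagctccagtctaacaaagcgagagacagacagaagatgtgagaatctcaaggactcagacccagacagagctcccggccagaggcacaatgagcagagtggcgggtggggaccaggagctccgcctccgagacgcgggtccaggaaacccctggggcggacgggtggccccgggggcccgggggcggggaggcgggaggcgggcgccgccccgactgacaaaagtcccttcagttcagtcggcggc
Rela: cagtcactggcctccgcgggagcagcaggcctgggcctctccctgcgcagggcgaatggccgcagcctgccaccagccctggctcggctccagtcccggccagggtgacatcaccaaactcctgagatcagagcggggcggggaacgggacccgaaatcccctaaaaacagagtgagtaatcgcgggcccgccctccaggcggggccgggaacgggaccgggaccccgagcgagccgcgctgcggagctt
The match in Nfkbia spans the bases from 29 to 20 upstream of the start, and 1 match in Tnfaip3 those from 12 to 3. Rel, whose window is not shown, also held overlapping matches, between 92 and 82 bases upstream. A match of letters is a description of the sequence and does not show that a factor binds there.

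**Figure D1:**
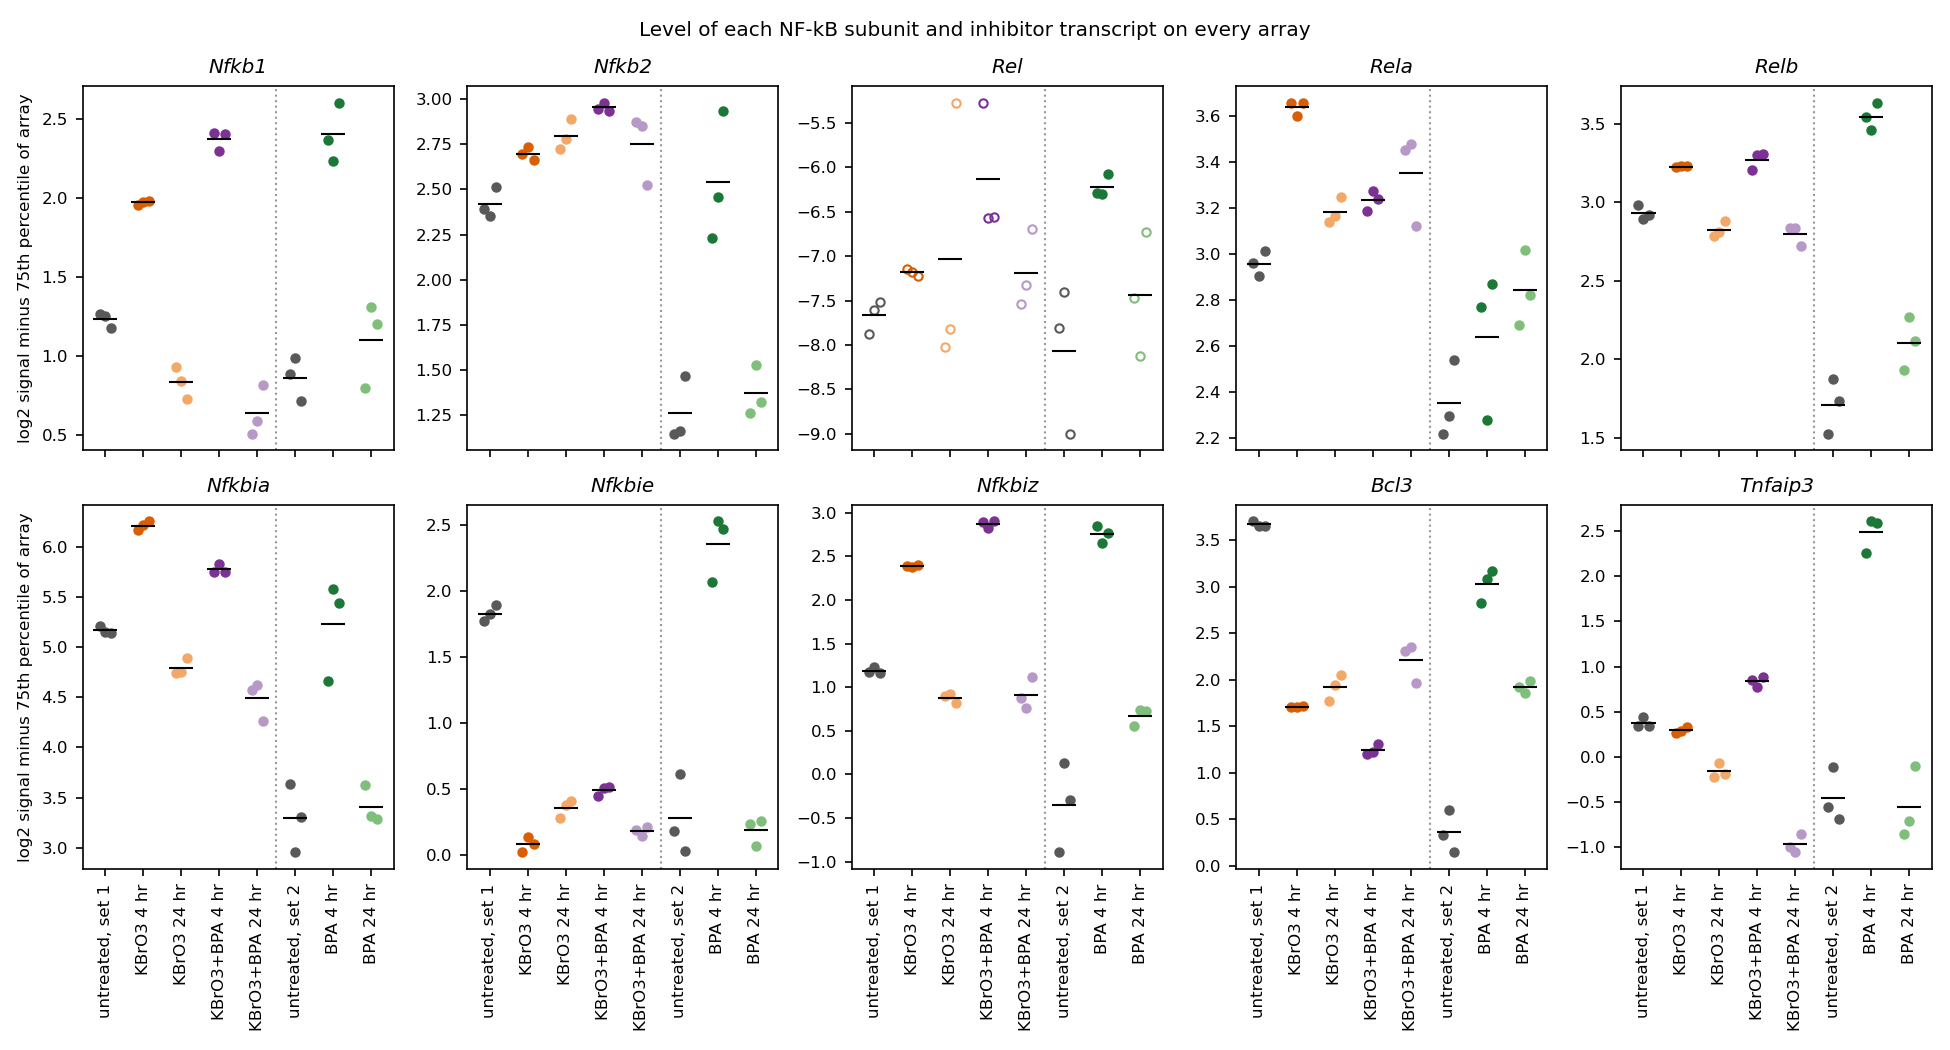
Level (log2 signal minus the 75th percentile of the array) of each transcript on every array, by group, with 1 point per array and a line at the group mean. The dotted line parts the first set from the second, and open points mark groups in which the probe was not well above background on all 3 arrays, such as Rel in the first set. The y axis differs between panels. Bcl3 stood at 3.65 to 3.71 in the first untreated group and at 0.14 to 0.60 in the second.

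The untreated cells of the second set held lower levels of most of these transcripts than those of the first. Of the 9 members tested, 8 were called lower and none higher, against a background of 12% of probes lower and 15% higher. The median difference (second minus first set) was −1.22 over the members and 0.01 over the 30324 probes tested. Bcl3 differed most among the members, and its arrays read 3.71, 3.66 and 3.65 in the first group and 0.33, 0.60 and 0.14 in the second. These groups lay far apart, and the level was 9.96-fold lower in the second (log2 difference −3.32 ± 0.16 SE, adjusted p = 0.000361). Nfkbia, the main cytoplasmic inhibitor, read 5.21, 5.15 and 5.14 against 3.63, 2.95 and 3.31. It was 3.65-fold lower (adjusted p = 0.00273), and no array of one group reached the other. Nfkbie was 2.93-fold lower (1.77 to 1.89 against 0.03 to 0.61, adjusted p = 0.00373) and Nfkbiz 2.91-fold lower (1.16 to 1.23 against −0.89 to 0.13, adjusted p = 0.00948). Relb (2.33-fold), Nfkb2 (2.24-fold), Tnfaip3 (1.78-fold) and Rela (1.52-fold) were lower too, with adjusted p-values between 0.00374 and 0.0259. The brightest probe of Nfkb1 read 1.18 to 1.27 and 0.72 to 0.99 and was not called (log2 difference −0.37 ± 0.14 SE, adjusted p = 0.0905), whereas its 3 dimmer probes were called, between −1.04 and −1.70.

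This difference is one between sets of arrays that lie on different slides and, per the file headers, were read with different scanner models (Agilent G2505B and G2505C) and versions of the extraction software, and set and cell state cannot be told apart. With normexp background correction none of the 8 was called (adjusted p from 0.138 to 0.797), although all kept their sign. Normexp called no probe at all between these groups. The calls of Rela and Tnfaip3 were also lost with median scaling (adjusted p = 0.0518 and 0.0508), that of Rela with quantile normalization and with the mean of its probes, and both were lost without any 1 of the first set's untreated arrays, and that of Rela without untreated replicate 1 or 2 of the second. Marker sums moved with the set as well. The log2 of the summed level of the 8 fibroblast markers was 9.97 to 10.1 in the first untreated group and 8.95 to 9.31 in the second, and that of the 9 leukocyte markers 1.64 to 1.72 and 0.41 to 0.66, mainly through Cd14 (mean level 1.30 and −0.72). Their part in the difference was not tested. In the rest of the text each treatment is set only against the untreated cells of its own set.

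**Figure D2:**
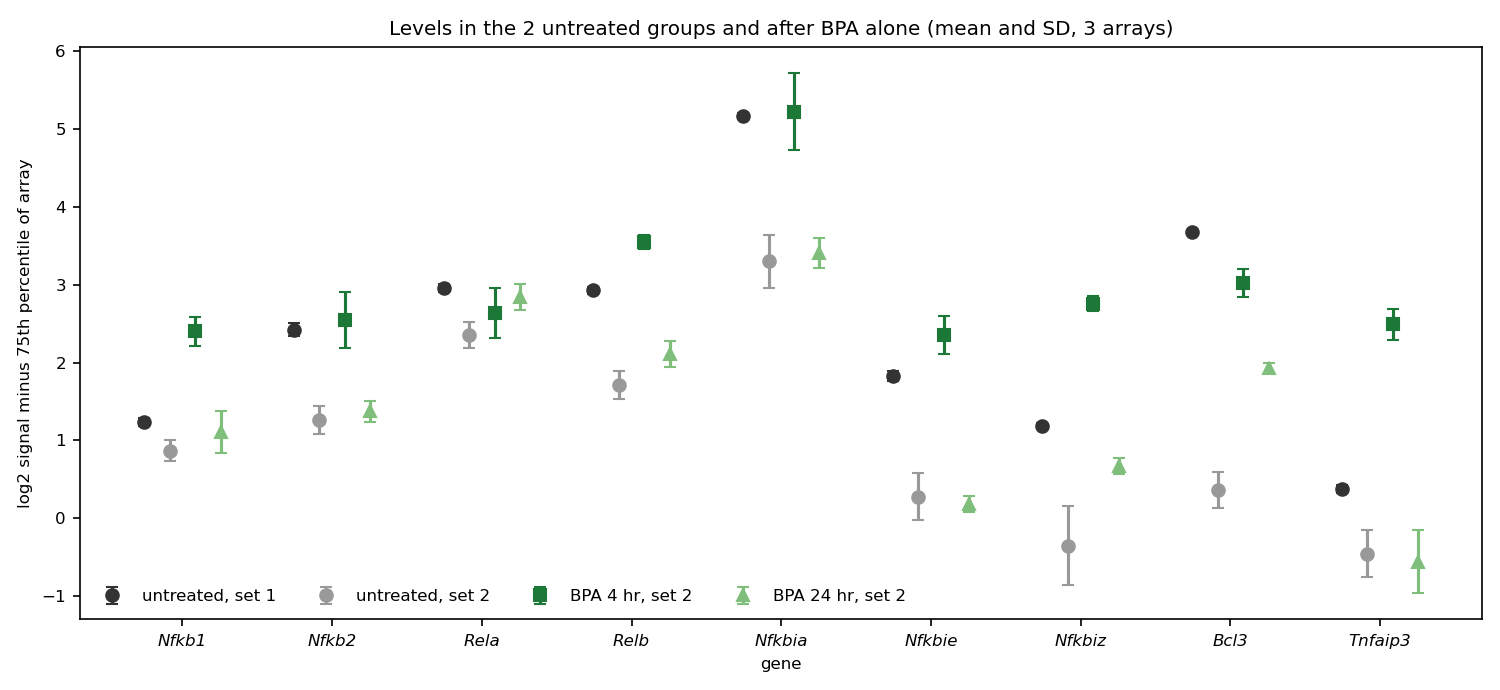
Mean level and SD (n = 3 arrays) of 9 transcripts in both untreated groups and after BPA alone, on the log2 scale relative to the 75th percentile of the array. Bcl3 shows the widest gap between the untreated groups, at 3.67 and 0.36. The levels of different genes come from different probes and are not comparable.

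BPA alone raised most of these transcripts at 4 hr, with the largest estimates for the inhibitors Nfkbiz, Tnfaip3 and Bcl3. Of the 10 members tested, 8 were called higher and none lower, against a background of 2.83% of probes higher and 1.41% lower. The median log2 difference was 1.89 over the members (1.93 without Rel) and −0.03 over all 31810 probes tested. Nfkbiz, an atypical nuclear inhibitor, read −0.89, 0.13 and −0.30 in untreated cells and 2.85, 2.65 and 2.77 with BPA. All treated arrays lay far above all untreated ones, and the rise was 8.63-fold (log2 difference 3.11 ± 0.26 SE, adjusted p = 0.000557). Tnfaip3, which encodes the ubiquitin-editing enzyme A20, went from −0.56, −0.12 and −0.70 to 2.26, 2.61 and 2.59. That rise was 7.73-fold (adjusted p = 0.000752), without overlap. Bcl3, the other nuclear inhibitor, read 0.33, 0.60 and 0.14 before and 2.82, 3.09 and 3.17 after. Its 6.36-fold rise (log2 difference 2.67 ± 0.19 SE) had the smallest adjusted p of the members, at 0.00034.

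Both cytoplasmic inhibitors rose as well. Nfkbie went from 0.18, 0.61 and 0.03 to 2.07, 2.53 and 2.47, or 4.23-fold (adjusted p = 0.00168). Nfkbia went from 3.63, 2.95 and 3.31 to 4.66, 5.58 and 5.44, or 3.8-fold (log2 difference 1.93 ± 0.29 SE, adjusted p = 0.00793). Its treated arrays were the most scattered of the inhibitors, with an SD of 0.50, yet the lowest of them stayed above the highest untreated array. Among the subunits, Relb, whose product works mostly with p52 in the noncanonical branch, rose 3.57-fold (1.53, 1.87 and 1.73 to 3.54, 3.46 and 3.64, adjusted p = 0.00128). Nfkb1, the gene of p50, rose 2.9-fold (0.89, 0.99 and 0.72 to 2.37, 2.24 and 2.60, adjusted p = 0.00514). Nfkb2, the gene of p52, rose 2.43-fold (1.15, 1.16 and 1.47 to 2.23, 2.46 and 2.94, adjusted p = 0.0158). In all 3 of these genes the treated arrays lay above the untreated ones. Rela, the main activating subunit, read 2.22, 2.29 and 2.54 in untreated cells and 2.77, 2.28 and 2.87 with BPA. These groups overlapped, and the difference was 0.29 ± 0.22 SE (adjusted p = 0.518). Rel, the subunit best known from lymphocytes, was near the limit of detection. It was well above background on 1 of 3 untreated arrays (−7.80, −7.40 and −9.0) and on all 3 with BPA (−6.29, −6.30 and −6.07). It entered the tests of this set only through these last arrays and was not called, and no fold is given for it, since its level in the other groups was mostly not above background.

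These calls were not kept with slide in the model. That fit leaves few degrees of freedom, since the set's 9 arrays lie on 5 slides, so that a lost call decides nothing about slide. The consensus correlation of arrays on 1 slide was 0.115 in this set. Slide 8, with 2 BPA arrays and 1 untreated array, is the one slide that holds both groups, and the differences on it were 3.70 for Nfkbiz, 2.99 for Tnfaip3, 2.67 for Bcl3, 2.09 for Nfkbie, 2.06 for Relb, 1.60 for Nfkb1, 1.44 for Nfkb2, 1.41 for Nfkbia and 0.60 for Rela. There Nfkbia lay below Relb, Nfkb1 and Nfkb2, and with normexp below Relb (1.60 and 1.78), so that no order holds among these. With slide as a fixed block no member was called (adjusted p of the 8 genes from 0.154 to 0.379), and with normexp background correction 3 were, Nfkbiz, Bcl3 and Tnfaip3, among 16 probes higher and 0 lower in all. Leaving out 1 array at a time gave 6 to 9 calls (Rel being the ninth), with Nfkb2 lost without untreated replicate 2 or without BPA replicate 2 or 3, and Nfkbia lost without BPA replicate 3. The summed leukocyte markers did not move with the rise, at 0.41 to 0.66 in untreated cells and 0.41 to 0.59 with BPA.

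By 24 hr of BPA alone most of these transcripts stood near their untreated level again. Against untreated cells 1 of the 10 members was called, against a background of 1.39% of probes higher and 2.02% lower. This was Bcl3, which read 1.93, 1.86 and 1.99 against 0.33, 0.60 and 0.14, or 2.97-fold higher (log2 difference 1.57 ± 0.19 SE, adjusted p = 0.00519). Within the slides that hold 1 array of each group the difference was 1.33 (slide 7) and 1.72 (slide 9), while the call was lost with slide as a fixed block (adjusted p = 0.0956) and with normexp background correction (adjusted p = 0.16). Normexp called no probe at all in this comparison. Nfkbiz read 0.56, 0.74 and 0.73, above all untreated arrays, but its difference of 1.03 ± 0.26 SE missed the threshold (adjusted p = 0.0662). Without untreated replicate 2 (1.27, adjusted p = 0.036) or in 1 fit of all 24 arrays (adjusted p = 0.000203) it was called, the latter with a spread shared with the less scattered first set. The other members except Rel had adjusted p-values between 0.268 and 0.885, with differences between −0.10 for Tnfaip3 and 0.49 for Rela. Rel was well above background on 1 of 3 arrays of either group.

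The fall from 4 to 24 hr of BPA was tested directly. Here 8 of 10 members were called lower at 24 hr and none higher, against 2.79% and 1% of all probes. Tnfaip3 fell 8.3-fold (2.26 to 2.61 at 4 hr and −0.86 to −0.10 at 24 hr, adjusted p = 0.000942), Nfkbie 4.49-fold and Nfkbiz 4.24-fold. Nfkbia fell 3.53-fold, Relb 2.72-fold, Nfkb1 2.46-fold and Nfkb2 2.25-fold. Bcl3 fell least of the 8, at 2.14-fold (2.82 to 3.17 at 4 hr and 1.86 to 1.99 at 24 hr, adjusted p = 0.0162). The difference of Rela (0.20, adjusted p = 0.622) was not called, nor was that of Rel, which was mostly not above background at 24 hr. None of the 8 was called with slide as a fixed block or with normexp background correction, Nfkb2 and Bcl3 were not called with median scaling (adjusted p = 0.0549 and 0.0685), and leaving out 1 array gave 4 to 8 calls. With normexp no probe at all was called here. Nfkb1, Nfkb2, Nfkbia and Bcl3 were lost without BPA 4 hr replicate 3, the last 3 of them without BPA 4 hr replicate 2, Nfkb2 without any 1 array at 24 hr and Bcl3 without BPA 24 hr replicate 2. The fibroblast sum fell without overlap too, from 9.03 to 9.22 at 4 hr down to 8.82 to 8.97 at 24 hr, while the sums of the other marker lists overlapped. Their part in the result was not tested.

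**Figure D3:**
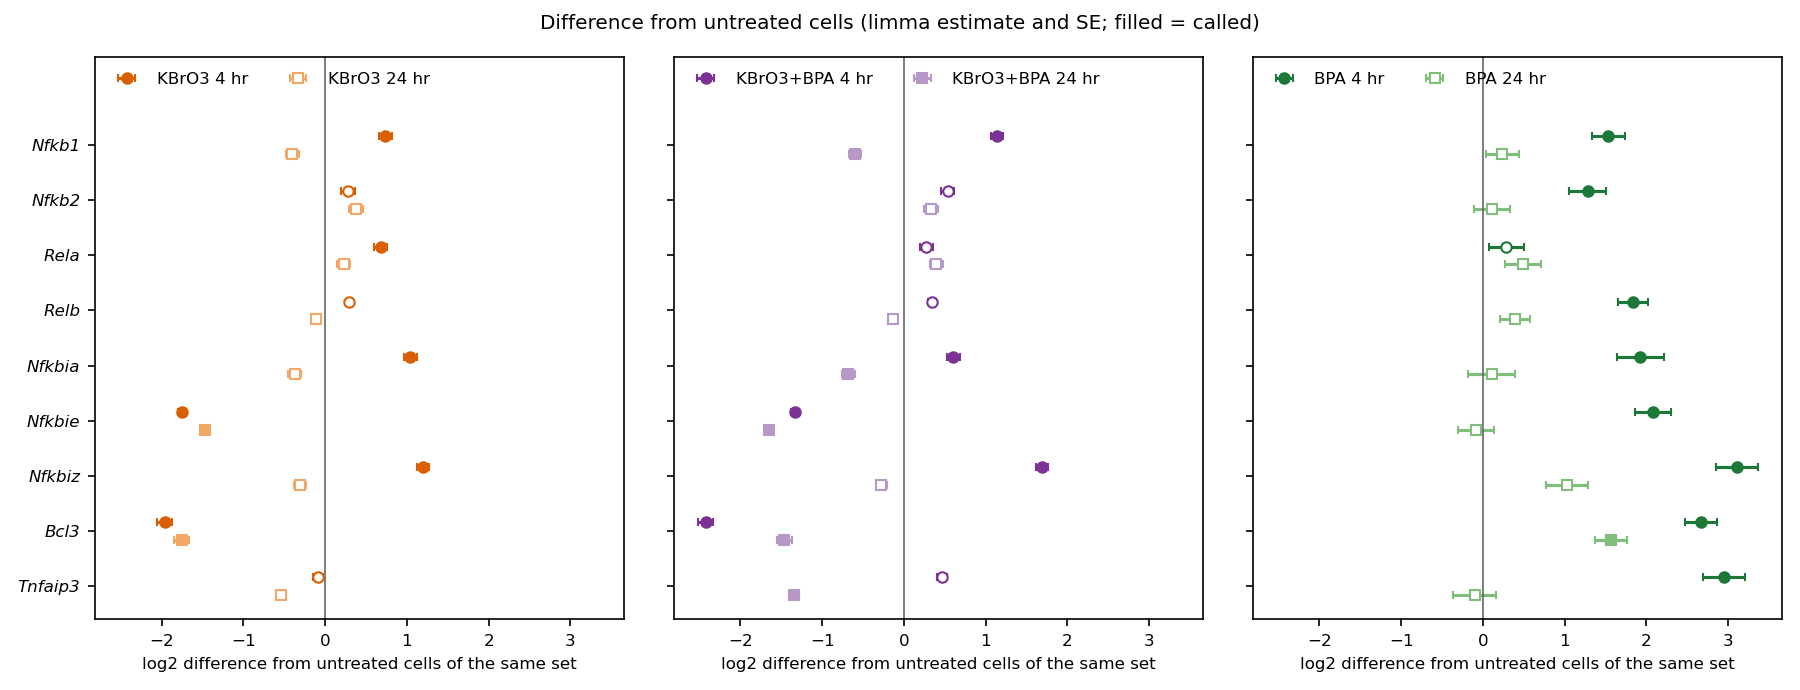
Difference of 9 transcripts (all but Rel) from the untreated cells of its own set on the log2 scale, with bars of 1 SE from limma. Circles are 4 hr and squares 24 hr, filled where called. With BPA alone the 4 hr circles lie to the right, up to 3.11 for Nfkbiz, whereas with KBrO3 those of Nfkbie and Bcl3 lie to the left, at −1.75 and −1.96.

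KBrO3 split the family at 4 hr. Of the 9 members tested, 4 were called higher and 2 lower, but so were 23% and 22.5% of all 27310 probes, so that this share is no sign of a response particular to these genes. Of all called probes 50.5% were higher, or 37.8% with normexp. Marker sums moved with this group without overlap with untreated cells, the endothelial sum to −2.52 to −2.42 (from −3.23 to −2.79), the epithelial sum to −2.21 to −1.83 (from −2.87 to −2.29) and the fibroblast sum to 9.88 to 9.96 (from 9.97 to 10.1), and their part in the results was not tested. Bcl3 read 3.71, 3.66 and 3.65 in untreated cells and 1.71 on each of the 3 treated arrays, a 3.9-fold fall (log2 difference −1.96 ± 0.09 SE, adjusted p = 1.25e-09). Nfkbie fell from 1.77, 1.82 and 1.89 to 0.02, 0.13 and 0.08, or 3.36-fold (adjusted p = 1.17e-11). Both falls exceeded the spread between arrays in every array. Nfkbiz rose from 1.18, 1.23 and 1.16 to 2.39, 2.38 and 2.40, or 2.3-fold (adjusted p = 1.23e-08). Nfkbia rose from 5.21, 5.15 and 5.14 to 6.17, 6.21 and 6.26, or 2.06-fold (adjusted p = 1.38e-07). So the inhibitors moved both ways, 2 up and 2 down, while Tnfaip3 read 0.34, 0.44 and 0.34 before and 0.26, 0.28 and 0.33 after (difference −0.08 ± 0.06 SE, adjusted p = 0.232).

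Among the subunits, Nfkb1 rose 1.67-fold, from 1.27, 1.25 and 1.18 to 1.96, 1.98 and 1.98 (adjusted p = 1.62e-06). Its other 3 probes rose more, by 1.39 to 1.83 on the log2 scale. Rela rose 1.6-fold, from 2.96, 2.90 and 3.01 to 3.66, 3.60 and 3.66 (adjusted p = 7.02e-06), and its dimmer probe 1.81-fold, although quantile normalization brought the brighter one to 0.45 and below the fold threshold. Nfkb2 (0.28, adjusted p = 0.0103) and Relb (0.30, adjusted p = 8.22e-05) differed by less than 1.5-fold and were not called. Rel was not well above background on any untreated or KBrO3 array of this set and was not tested. KBrO3 at 4 hr is the one group of the first set that shares a slide with an untreated array. On that slide 2 the differences were −1.94 for Bcl3, −1.81 for Nfkbie, 1.23 for Nfkbiz, 1.07 for Nfkbia, 0.79 for Nfkb1 and 0.63 for Rela, and with slide as a fixed block all 6 calls were kept.

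At 24 hr after the start of KBrO3 the falls of Bcl3 and Nfkbie remained and the rises did not. These were the 2 members called of 9, both lower, against a background of 19.1% of probes lower and 14.1% higher. Nfkbie read 0.28, 0.38 and 0.40, or 2.78-fold below untreated (adjusted p = 1.21e-10), and Bcl3 read 1.78, 1.94 and 2.05, or 3.37-fold below (adjusted p = 8.26e-09). No treated array came near the untreated ones. No slide holds both KBrO3 24 hr and untreated arrays, or KBrO3 arrays of both times, so that slide cannot be told apart from treatment or time. Residuals of arrays on 1 slide of the first set were alike (consensus correlation 0.634), which these p-values leave out. The summed fibroblast markers were lower at this time too, from 9.97 to 10.1 in untreated cells down to 8.79 to 8.94, and so was the leukocyte sum (1.48 to 1.56, from 1.64 to 1.72). Their part in the result was not tested. Tnfaip3 (−0.54), Nfkb1 (−0.40), Nfkbia (−0.37), Nfkbiz (−0.31), Nfkb2 (0.38), Rela (0.23) and Relb (−0.11) differed by less than 1.5-fold. The median difference was −0.37 over the members and −0.02 over all probes. Of all called probes 42.5% were higher, a share that became 58.8% when arrays were scaled to their median, with the same 2 members called. With normexp 18.1% were higher (2603 probes against 11803 lower), and Nfkb2 was called higher (0.65, adjusted p = 0.00616). From 4 to 24 hr, 3 members fell, Nfkbiz 2.85-fold (adjusted p = 1.74e-09), Nfkbia 2.67-fold (adjusted p = 8.69e-09) and Nfkb1 2.2-fold (adjusted p = 3.01e-08), against 27.9% of probes lower and 19.9% higher (41.7% of called probes higher, or 51.9% with median scaling). The change of Bcl3 over that time, 0.21 ± 0.09 SE, was not called (adjusted p = 0.055).

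With co-exposure to KBrO3 and BPA at 4 hr, Nfkbiz, Nfkb1 and Nfkbia were higher and Bcl3 and Nfkbie lower. These 3 and 2 of 9 members are about the share of all probes called, 29.9% and 24.4%, so that the count is no result about the members (55.0% of called probes were higher, or 36.3% with normexp). Marker sums moved with this group, without overlap with untreated cells, the fibroblast sum to 9.55 to 9.61 (from 9.97 to 10.1), the leukocyte sum to 1.32 to 1.37 (from 1.64 to 1.72), the epithelial sum to −2.01 to −1.89 (from −2.87 to −2.29) and the endothelial sum to −2.59 to −2.21 (from −3.23 to −2.79), and their part in the result was not tested. Nfkbiz rose 3.21-fold, from 1.16 to 1.23 in untreated cells to 2.90, 2.82 and 2.90 (adjusted p = 4.41e-10), and Nfkb1 rose 2.2-fold, to 2.41, 2.29 and 2.40 (adjusted p = 2.3e-08). Nfkbia rose 1.52-fold, to 5.74, 5.83 and 5.75 (adjusted p = 2.04e-05), a rise so close to the fold threshold that quantile normalization (0.34), median scaling (0.46) or leaving out co-exposed replicate 2 (0.58) ended the call. Bcl3 fell 5.38-fold, to 1.20, 1.22 and 1.31 (adjusted p = 1.5e-10), and Nfkbie fell 2.53-fold, to 0.44, 0.50 and 0.52 (adjusted p = 8.7e-11). Nfkb2 (0.53), Tnfaip3 (0.46), Relb (0.34) and Rela (0.28) stayed under 1.5-fold, but Nfkb2 (0.75, adjusted p = 0.00223) and Relb (0.62, adjusted p = 0.0054) were called higher with normexp. Rel was well above background on 1 co-exposed array, at −5.27.

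At 24 hr of co-exposure 5 of 9 members were called lower and none higher, against 23.5% and 15.9% of probes. Bcl3 read 2.31, 2.35 and 1.97, or 2.76-fold below untreated (adjusted p = 3.01e-08), and Nfkbie 0.18, 0.14 and 0.21, or 3.13-fold below (adjusted p = 2.69e-11). Tnfaip3 read −1.0, −1.06 and −0.86 against 0.34, 0.44 and 0.34, a 2.55-fold fall (adjusted p = 1.11e-09). All 3 falls lay well outside the spread between arrays. Nfkbia (4.58, 4.63 and 4.27, 1.6-fold lower, adjusted p = 1e-05) and Nfkb1 (0.51, 0.59 and 0.82, 1.51-fold lower, adjusted p = 1.49e-05) were lower by little more than the threshold. The call of Nfkbia was lost without co-exposed replicate 3 (−0.57), and that of Nfkb1 without untreated replicate 1 (−0.58) or co-exposed replicate 1 or 2 (−0.53 and −0.57), with slide as a random block (−0.54) and with the mean of its probes (−0.26). With normexp neither was called (−0.30 and −0.39), and Rela (0.65) and Nfkb2 (0.63) were called higher. When arrays were scaled to their median, the median of all probes moved up by 0.32, Nfkbia and Nfkb1 were no longer called, Rela (0.71) and Nfkb2 (0.65) were called higher, and 67.1% of all called probes were higher in place of 40.4% (52.5% with quantile normalization and 21.7% with normexp). The fall of Bcl3, Nfkbie and Tnfaip3 was called under every scaling tried. Slide and treatment cannot be told apart here, because no slide holds both co-exposed and untreated arrays, and the summed fibroblast markers fell at the same time, from 9.97 to 10.1 down to 8.37 to 8.56. The endothelial sum (−3.52 to −3.28, from −3.23 to −2.79) and the leukocyte sum (1.36 to 1.64, from 1.64 to 1.72) were lower too, the latter by little at its nearest. Their part in the result was not tested.

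From 4 to 24 hr of co-exposure 4 members fell and 1 rose, against 35% of probes lower and 20.6% higher. Nfkbiz fell 3.89-fold (adjusted p = 1.44e-10), Tnfaip3 3.51-fold (0.78 to 0.89 down to −1.06 to −0.86, adjusted p = 5.52e-11), Nfkb1 3.32-fold and Nfkbia 2.44-fold. Bcl3 rose 1.95-fold (1.20 to 1.31 up to 1.97 to 2.35, adjusted p = 9.95e-07). No slide holds co-exposed arrays of both times. Marker sums fell without overlap, the fibroblast sum from 9.55 to 9.61 down to 8.37 to 8.56 and the endothelial sum from −2.59 to −2.21 down to −3.52 to −3.28. The epithelial sum fell from −2.01 to −1.89 down to −3.23 to −2.78, while the leukocyte sums overlapped. Their part in the result was not tested. Median scaling moved the median of all probes by 0.46 in this comparison and the share of called probes that were higher from 37.0% to 62.7% (49.7% with quantile normalization), and the same number of members was called, 5.

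The part that BPA added to KBrO3 was read from co-exposed against KBrO3-only cells, which lie in 1 set. At 4 hr all 3 KBrO3-only arrays lie on slide 2 and all 3 co-exposed arrays on slide 3, so that slide and BPA cannot be told apart there, nor in any contrast that uses this difference. At 4 hr limma called none of the 9 members, against 11.9% of probes higher and 8.21% lower (59.2% of called probes higher, or 37.8% with median scaling and 43.2% with normexp). Their differences had the sign of a rise for Tnfaip3 (0.55), Nfkbiz (0.48), Nfkbie (0.41), Nfkb1 (0.40), Nfkb2 (0.26) and Relb (0.04) and of a fall for Bcl3 (−0.46), Nfkbia (−0.44) and Rela (−0.40). For Nfkb1 this is the brightest probe, and of its other 3 probes 1 read 0.40 and the others −0.12 and −0.17. The 8 other than Relb had an adjusted p below the threshold, from 1.39e-05 for Tnfaip3 to 0.0206 for Nfkb2, and it was the 1.5-fold limit that they missed. Bcl3 passed it with median scaling (−0.61) and Tnfaip3 with slide as a random block (0.59). At 4 hr the leukocyte sum was lower without overlap after co-exposure (1.32 to 1.37) than after KBrO3 alone (1.64 to 1.72). So was the fibroblast sum (9.55 to 9.61 and 9.88 to 9.96), and the part of these markers was not tested. At 24 hr Tnfaip3 was called, against 8.23% of probes lower and 5.35% higher (39.4% of called probes higher, or 67.2% with median scaling and 51.7% with normexp). It read −0.23, −0.07 and −0.20 after KBrO3 and −1.0, −1.06 and −0.86 after co-exposure, a 1.75-fold fall (log2 difference −0.81 ± 0.06 SE, adjusted p = 4.99e-07). On slide 4, with 2 arrays of each group, its difference was −0.90, and the call held with slide as a fixed block. The other 8 members had differences between −0.31 (Nfkbia) and 0.29 (Bcl3). At 24 hr the endothelial sum was lower without overlap after co-exposure (−3.52 to −3.28) than after KBrO3 alone (−2.85 to −2.51). So was the fibroblast sum (8.37 to 8.56 and 8.79 to 8.94). Their part in the result was not tested.

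That difference between co-exposed and KBrO3-only cells changed from 4 to 24 hr for 4 members, Tnfaip3 (−1.36 ± 0.08 SE, adjusted p = 3.76e-07), Nfkb1 (−0.59, adjusted p = 0.000627), Nfkbie (−0.59, adjusted p = 3.34e-05) and Bcl3 (0.75, adjusted p = 0.000556). The background was 16.3% of probes lower and 11% higher, and 40.4% of called probes were higher, or 74.4% with median scaling, 50.4% with quantile normalization and 59.1% with normexp. The co-exposed arrays of Tnfaip3 lay above the KBrO3-only arrays at 4 hr (0.78 to 0.89 and 0.26 to 0.33) and below them at 24 hr (−1.06 to −0.86 and −0.23 to −0.07). For Nfkb1 and Nfkbie the change lay at the 1.5-fold limit, and either call was lost with median scaling (−0.28 and −0.27) and in some fits without 1 array, of which Nfkbie was lost without KBrO3 4 hr replicate 1, KBrO3 24 hr replicate 2 or 3, co-exposed 4 hr replicate 2 or 3 or co-exposed 24 hr replicate 2. Nfkb1 was lost without co-exposed 4 hr replicate 1 or 3, KBrO3 24 hr replicate 1 or co-exposed 24 hr replicate 1 or 2. The call of Nfkb1 was also lost with slide as a random block (−0.57) and with the mean of its probes (−0.36), that of Nfkbie with quantile normalization (−0.58) and that of Bcl3 with normexp (adjusted p = 0.121). Rela was called higher with median scaling (0.88), slide as a random block (0.61) and the mean of its probes (0.65), and without KBrO3 4 hr replicate 2, co-exposed 4 hr replicate 2 or replicate 3 of either group at 24 hr. Leaving out 1 array gave 2 to 5 calls.

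The effect of BPA on these transcripts at 4 hr, taken with its sign, was lower beside KBrO3 (first set) than alone (second set). The difference between both effects was tested in 1 fit of all 24 arrays, over the 27180 probes tested in both sets. This fit shares 1 spread per probe between sets of unlike spread (median residual SD 0.106 and 0.318). The SE of the difference for Relb (0.14) and Bcl3 (0.17) is thus below that of BPA alone in its own set (0.18 and 0.19). The p-values of this fit therefore overstate the certainty. At 4 hr all 9 members tested were called, all with a lower signed effect of BPA beside KBrO3, which for Bcl3, Nfkbia and Rela was below 0, against 7.42% of probes in this direction and 8.5% in the other (53.4% of called probes higher, or 34.6% with median scaling and 24.2% with normexp). Alone and beside KBrO3, the effects of BPA were 2.67 and −0.46 for Bcl3 (difference −3.13 ± 0.17 SE, adjusted p = 1.5e-09), 3.11 and 0.48 for Nfkbiz (−2.63), and 2.95 and 0.55 for Tnfaip3 (−2.40). For Nfkbia they were 1.93 and −0.44 (−2.36), for Relb 1.84 and 0.04 (−1.79), for Nfkbie 2.08 and 0.41 (−1.67), for Nfkb1 1.54 and 0.40 (−1.14) and for Nfkb2 1.28 and 0.26 (−1.03). The adjusted p-values of these genes lay between 9.73e-08 and 0.00212. Rela had the smallest difference (0.29 and −0.40, −0.69, adjusted p = 0.0184), and its call was lost with quantile normalization (adjusted p = 0.0839), normexp, a fit of the compared groups alone, the mean of its probes and without BPA replicate 3. The call of Nfkb2 was lost with normexp as well (−0.65, adjusted p = 0.5). The median difference of effects was −1.79 over the members and 0.04 over all probes. The test sets a rise from the low untreated level of the second set against a change from the KBrO3 level of the first, and set and presence of KBrO3 cannot be told apart.

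At 24 hr the difference between both effects, from the same fit and with the same limit, was called for 2 of 9 members. The background was 2.39% of probes lower and 1.99% higher. The members called were Bcl3 (1.57 alone and 0.29 beside KBrO3, difference −1.28 ± 0.17 SE, adjusted p = 0.000207) and Nfkbiz (1.03 and 0.03, difference −0.99 ± 0.23 SE, adjusted p = 0.0164). The second call was lost with median scaling (adjusted p = 0.128), normexp (adjusted p = 0.168), a fit of the compared groups alone (adjusted p = 0.24) and without co-exposed replicate 2 (adjusted p = 0.0531). Tnfaip3 (−0.71, adjusted p = 0.0902) was called without untreated replicate 2 of the second set or BPA replicate 1, and Nfkb1 (−0.44, adjusted p = 0.199) without BPA replicate 1.

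**Figure D4:**
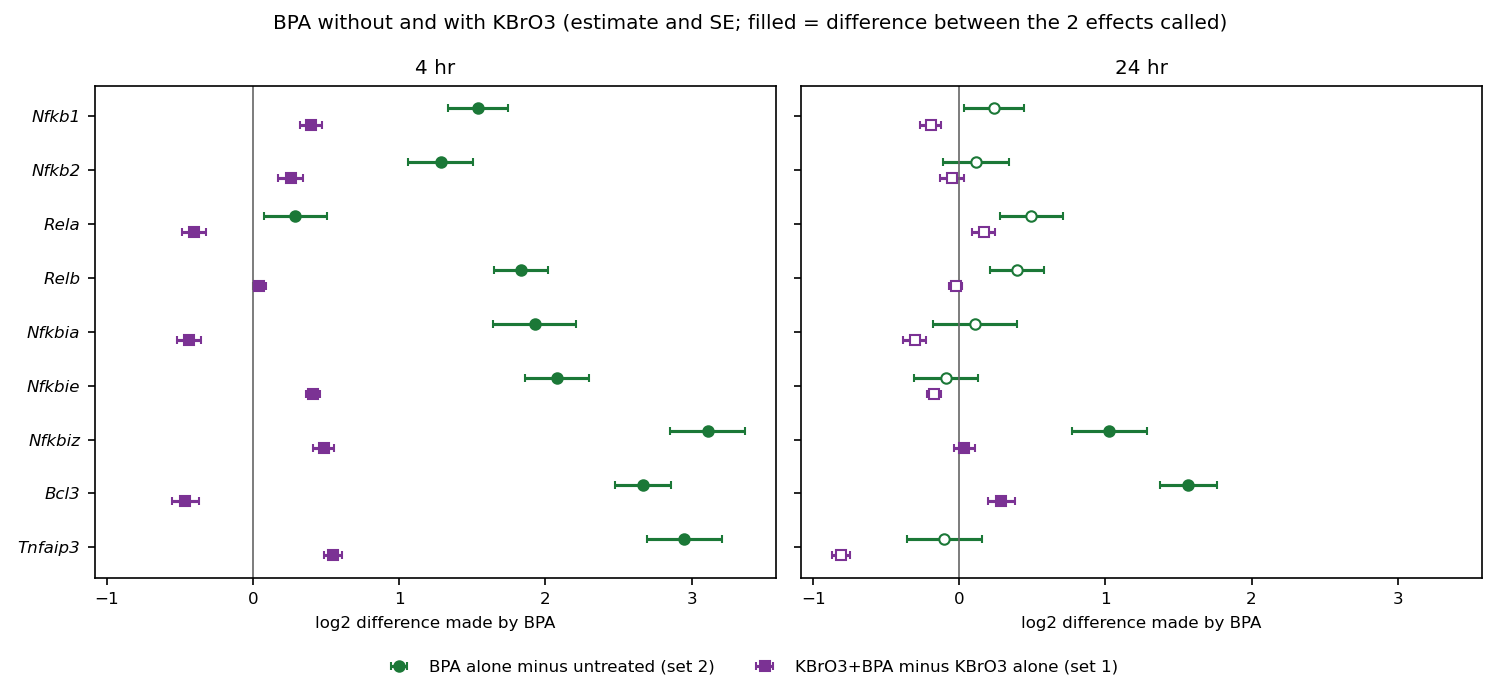
Effect of BPA on 9 transcripts as a log2 difference with bars of 1 SE, alone against untreated cells of the second set (circles) and beside KBrO3 against KBrO3-only cells of the first set (squares), at 4 and 24 hr. Symbols are filled where the difference between both effects was called. At 4 hr the circles of Nfkbiz, Tnfaip3 and Bcl3 lie at 3.11, 2.95 and 2.67 and their squares at 0.48, 0.55 and −0.46.

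Other genes of the pathway were read from 3 lists, 28 genes that relay the signal to NF-kB (kinases, adaptors and ubiquitin ligases), 13 further inhibitors and 26 genes that NF-kB is known to switch on. The lists were chosen with earlier results of these data known, so that their counts are a description and no independent support. With BPA alone at 4 hr the targets moved with the members. Of 26 targets tested, 22 were called higher and none lower (2.83% and 1.41% of all probes), and the median log2 difference was 2.38 (−0.03 over all probes). Ccl20, a chemokine for lymphocytes and dendritic cells, rose 62.9-fold (mean level −2.45 to 3.53, adjusted p = 0.000193). Cxcl2, a neutrophil chemokine, was not well above background on any untreated array and was at least 47.5-fold higher with BPA (adjusted p = 3.35e-05), a bound taken from the dimmest probes well above background on each array. It entered the tests of this set only through arrays with BPA, so that its call is no support for a rise. How many other targets entered in this way was not counted. In the relay list 1 gene of 28 was called, the kinase gene Map3k8, 3.18-fold higher (adjusted p = 0.0037), and among the further inhibitors 1 of 13, the ribonuclease gene Zc3h12a, 7.13-fold higher (adjusted p = 0.000446). With slide as a fixed block none of these 24 genes was called. At 24 hr 11 of 26 targets were called higher and none lower (1.39% and 2.02% of all probes), with the acute-phase gene Saa3 25.4-fold (adjusted p = 0.00126) and the iron-binding protein gene Lcn2 18.9-fold higher (adjusted p = 0.00318), and no gene of the other lists was called. These 11 calls became 1 with the Bonferroni rule and 0 with normexp or with slide as a fixed block, and leaving out 1 array gave 7 to 10.

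With KBrO3 more targets were called higher than lower at 4 hr and more lower than higher at 24 hr. Of the comparisons in this paragraph only that of KBrO3 alone at 4 hr has a slide shared with untreated cells. At 4 hr 14 of 25 targets were called higher and 3 lower, against 23% and 22.5% of all probes (median 0.83, and 0.06 over all probes). Ptgs2, the inducible cyclooxygenase, rose 67.7-fold (mean level −1.33 to 4.75, adjusted p = 7.86e-15) and the survival gene Ier3 8.67-fold (adjusted p = 5.11e-14), whereas Birc3, an inhibitor of apoptosis, fell 3-fold (adjusted p = 1.15e-09) and the adhesion gene Vcam1 2.85-fold (adjusted p = 5.4e-10). At 24 hr 3 were higher and 16 lower, against 14.1% and 19.1% of all probes (median −1.41, and −0.02 over all probes), led downward by Saa3 (13.1-fold, mean level 4.52 to 0.81, adjusted p = 2.92e-14) and Lcn2 (9.5-fold, adjusted p = 2.18e-12). Ptgs2 was still 2.05-fold higher (adjusted p = 3.17e-08) and Bcl2l1 2.13-fold higher (adjusted p = 3.59e-06). Co-exposure gave 15 higher and 3 lower of 25 at 4 hr, against 29.9% and 24.4% of all probes, and 5 higher and 17 lower at 24 hr, against 15.9% and 23.5%. There Ptgs2 and Ier3 led upward at 4 hr (66.6-fold and 11.8-fold), Vcam1 and Birc3 downward (2.24-fold and 1.72-fold), and Saa3 led downward at 24 hr (17.6-fold, adjusted p = 8.09e-15). Csf2, which encodes a growth factor, was above background on no co-exposed array at 24 hr and was at least 1.97-fold lower (adjusted p = 8.41e-10). Bcl2l1 (2.2-fold) and Ptgs2 (2.08-fold) were the most raised targets at that time.

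The relay genes and further inhibitors were called in both directions with KBrO3, as were large shares of all probes (higher and lower, 23% and 22.5% with KBrO3 at 4 hr, 14.1% and 19.1% at 24 hr, 29.9% and 24.4% with co-exposure at 4 hr and 15.9% and 23.5% at 24 hr). Of 28 relay genes 5 were higher and 8 lower at 4 hr, 5 and 2 at 24 hr, 9 and 9 with co-exposure at 4 hr and 7 and 3 at 24 hr. Ripk1, a kinase that carries the signal of the TNF receptor, was the most raised in all 4 comparisons, between 2.54-fold and 6.41-fold, and Map3k7, the kinase TAK1, was second, between 1.66-fold and 2.35-fold. Rnf31, a ubiquitin ligase subunit, fell 2.96-fold and Map3k8 2.76-fold with KBrO3 at 4 hr. Map3k8 also led downward with KBrO3 at 24 hr (3.25-fold, with Ikbkg, a subunit of the kinase complex, at 2.07-fold), with co-exposure at 4 hr (3.69-fold, with the kinase gene Ikbke at 2.62-fold) and at 24 hr (3.51-fold, with Map3k14 at 1.64-fold). Of the 13 further inhibitors 5 were higher and 4 lower with KBrO3 at 4 hr, none and 4 at 24 hr, 5 and 3 with co-exposure at 4 hr and 1 and 5 at 24 hr. Tollip (2.29-fold) and Otulin (2.21-fold) rose most with KBrO3 at 4 hr and Pdlim2 (4.06-fold) and Cyld (2.26-fold) fell most. Zc3h12a (5.28-fold) and Pdlim2 (3.96-fold) fell most at 24 hr. With co-exposure Otulin (2.3-fold), Tollip (2.29-fold), Pdlim2 (5.72-fold lower) and Tnip1 (2.26-fold lower) led at 4 hr, and Nfkbib (1.53-fold higher), Pdlim2 (5.18-fold lower) and Zc3h12a (4.25-fold lower) at 24 hr.

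**Figure D5:**
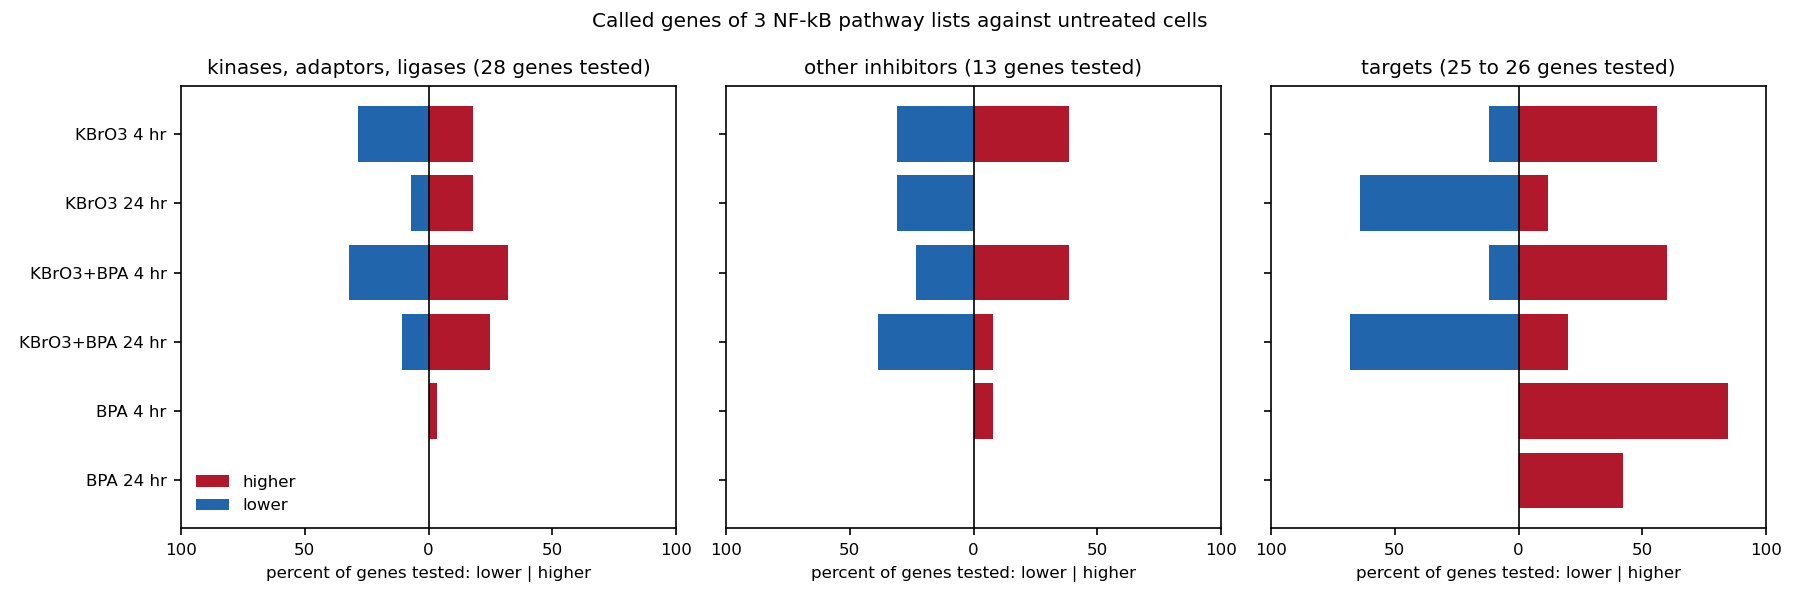
Percent of the genes tested in each of 3 pathway lists that were called higher (right) or lower (left) than untreated cells of the same set, for 6 comparisons. The bar of the targets reaches furthest right with BPA alone at 4 hr, where 22 of 26 were higher, and furthest left with co-exposure at 24 hr, where 17 of 25 were lower.

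The untreated levels of the targets also differed between sets, 22 of 26 being called lower and 1 higher in the second (median −2.28, against 12% and 15% of probes). At 4 hr the signed effect of BPA on them was lower beside KBrO3 than alone for 22 of 25 and higher for 1 (median difference −2.01, against 7.42% and 8.5% of probes). In the relay list these counts were 4 lower and 2 higher of 28 between untreated groups and 3 lower of 28 for the effect of BPA, and among the 13 further inhibitors 5 lower and 1 higher, and 2 lower and 1 higher.

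The shape of the response over the arrays was compared after the untreated mean of its own set was taken from each value. Over the 24 arrays, which include 6 untreated ones and share sets and controls, Pearson's r between members was highest for Nfkb1 and Nfkbiz (0.944), Relb and Tnfaip3 (0.935), and Relb and Nfkbiz and also Bcl3 and Nfkbie (both 0.923). For Rela r was lower, between −0.32 (Nfkbie) and 0.27 (Nfkbiz). Among 14441 genes, the 3 whose pattern was most like that of Nfkbia were Socs1 (0.966), Junb (0.947) and Cxcl2 (0.946), and for Nfkbie they were Irgm2 (0.978), Fas (0.969) and Birc3 (0.967). Bcl3 was followed by Calhm6 (0.978), Ifi203 (0.967) and Map3k8 (0.959), Nfkbiz by Serpina3f (0.956), Ripk2 (0.953) and Ccl20 (0.953), and Tnfaip3 by Icosl (0.939), Tsc22d1 (0.937) and Relb (0.935). For the subunits they were Gadd45b (0.953), Nfkbiz (0.944) and Pspc1 (0.937) for Nfkb1, and Pik3r5 (0.886), Ripk2 (0.864) and Cxcl9 (0.857) for Nfkb2. Ripk2 (0.964), Ccl2 (0.937) and Tnfaip3 (0.935) came closest to Relb, and H13 (0.891), Dcbld1 (0.847) and Pim3 (0.838) to Rela. Rel was left out, since it was not tested in the first set.

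The 4 probes of Nfkb1 differed in some comparisons. All 4 were called higher at 4 hr with KBrO3 (0.74 to 1.83), co-exposure (1.14 to 2.08) and BPA alone (1.54 to 1.88), and all 4 were called lower at 24 than at 4 hr with KBrO3 (−1.63 to −1.14), co-exposure (−1.94 to −1.71) and BPA alone (−1.76 to −1.30). With KBrO3 at 24 hr none was called, and the brightest read −0.40 while the others read 0.32, 0.21 and −0.24. At 24 hr of co-exposure the brightest was called lower (−0.60) while the others read 0.14, −0.01 and −0.57 and were not called. The dimmer Rela probe differed from the brighter one in the untreated comparison (−0.46, adjusted p = 0.216) and in the effect of BPA beside KBrO3 minus that of BPA alone at 4 hr (−0.41, adjusted p = 0.594), and was not called in either. In the change of the BPA effect beside KBrO3 from 4 to 24 hr it was called (0.73, adjusted p = 0.00178) and the brighter one was not.

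The Methods' own rule, a Bonferroni-adjusted p below 0.01 beside the 1.5-fold limit, called 4 members with KBrO3 at 4 hr (and 28.8% of all probes), 2 at 24 hr (16.8%), 4 with co-exposure at 4 hr (32.6%) and 3 at 24 hr (20.8%). With BPA alone it called Bcl3 at 4 hr and no member at 24 hr, against 0.066% and 0.0189% of probes. For BPA beside KBrO3 it called none at 4 hr (4.99% of probes) and Tnfaip3 at 24 hr (5.8%). From 4 to 24 hr it called 3 members with KBrO3 (26.7%), 5 with co-exposure (30.1%) and none with BPA alone (0.0377%). It called none between the untreated groups (0.0989%), 1 for the change of the BPA effect beside KBrO3 with time (3.84%), and 6 and 0 for the difference between both effects of BPA at 4 and 24 hr (0.857% and 0.269%).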

How the data were processed

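Cy3-labeled cRNA from 24 samples was read on Agilent arrays in 1 color. The authors deposited intensity values per spot, the processed signal of Agilent Feature Extraction, which is detrended within an array but not normalized between arrays (version 9.5.3.1 in the first set and 12.0.0.7 in the second per the file headers; the labels name 12.0). The deposited table of the series held the same intensity in 1080432 of 1080432 values. Signals were taken to log2, the 75th percentile of each array was subtracted, outlier spots were left out and spots of 1 probe were averaged (Python 3.11.15, pandas 2.3.3). Each set was fitted with limma 3.58.1 (lmFit, eBayes) in R 4.3.3 with group means, the untreated groups in a fit of their own, and differences between sets' effects in 1 fit of 24 arrays. Labels were mapped by sample title. Replicate numbers do not pair samples, since the residuals of same-numbered arrays correlated with a mean r of −0.0294 and 0.00202. The members and gene lists were chosen with earlier results of these data known. Named are all members, the 2 called genes of each list that rose most and the 2 that fell most against untreated cells, the 3 genes most like each member, and Xrcc6. Alternatives were quantile normalization, median scaling, normexp (offset 50), the series table, other filters and fits, error weights, slide or replicate number as a block, the mean of a gene's probes and leaving out arrays. The fit was tested on simulated data. A probe's gene is the name in the files, and 32719 of 41174 probes matched a RefSeq gene of GRCm38.p6 by accession, symbol or synonym. A bound (at least N-fold) compares the bright group's mean with the higher of the dim probe's signal and the dimmest signal well above background, per array. The result for 1 gene of the leukocyte marker list is not reported here.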

Additional observations from a re-analysis of the deposited data

Results flagged for a closer look

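Some effects differed between times or between settings by a test of the difference itself, and such tests are repeated here with values only (log2, limma, same call rule). The change from 4 to 24 hr with KBrO3 alone was −1.51 for Nfkbiz, −1.42 for Nfkbia and −1.14 for Nfkb1. With co-exposure it was −1.96 for Nfkbiz, −1.81 for Tnfaip3, −1.73 for Nfkb1, −1.29 for Nfkbia and 0.97 for Bcl3. With BPA alone it was −3.05 for Tnfaip3, −2.17 for Nfkbie, −2.08 for Nfkbiz, −1.82 for Nfkbia, −1.44 for Relb, −1.30 for Nfkb1, −1.17 for Nfkb2 and −1.10 for Bcl3.

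The difference that BPA made beside KBrO3 changed from 4 to 24 hr by −1.36 for Tnfaip3, −0.59 for Nfkb1, −0.59 for Nfkbie and 0.75 for Bcl3. The effect of BPA beside KBrO3 minus that of BPA alone was −3.13 for Bcl3, −2.63 for Nfkbiz, −2.40 for Tnfaip3, −2.36 for Nfkbia, −1.79 for Relb, −1.67 for Nfkbie, −1.14 for Nfkb1, −1.03 for Nfkb2 and −0.69 for Rela at 4 hr. At 24 hr it was −1.28 for Bcl3 and −0.99 for Nfkbiz.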

How the results depend on the processing

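No member that was called changed sign under any alternative that could be fitted, and the deposited table, kept outlier spots, error weights and no filter on dim probes changed no member's call. The second set's counts were the least stable. For BPA at 4 hr the 8 member calls became 1 (Bonferroni rule), 3 (normexp) and 0 (slide as a fixed block), and the 24 pathway calls became 8, 7 and 0. Rel was called as well in 1 fit of all 24 arrays (adjusted p = 0.024) and with the mean of a gene's probes (adjusted p = 0.0499). For BPA at 24 hr the 1 member call became 0 under each of these and 2 in 1 fit of all 24 arrays (1 to 2 without 1 array), and the 11 pathway calls became 1, 0, 0 and 19, and 5 with only the compared groups (7 to 10 without 1 array). For BPA 24 against 4 hr the 8 calls became 0 under the Bonferroni rule, normexp and the slide block (4 to 8 without 1 array), and the 8 between untreated groups became 0 with the Bonferroni rule and normexp. In these comparisons, and for BPA at 24 hr, normexp called no probe at all. Co-exposure at 24 hr had 3 calls with the Bonferroni rule in place of 5. BPA beside KBrO3 at 4 hr had 1 with median scaling and 1 with slide as a random block in place of 0. Its change with time had 1 with the Bonferroni rule in place of 4 (2 to 5 without 1 array). The 24 hr difference between both effects of BPA had 0 with the Bonferroni rule and 1 with median scaling, normexp or only the compared groups in place of 2 (1 to 4 without 1 array). The cause was not tested. The replicate block changed 1 member count, 7 in place of 8 between the untreated groups (Rela, adjusted p = 0.0715), left that of BPA at 4 hr at 8, and gave 9 pathway genes in place of 11 for BPA at 24 hr. No fit with slide as a block could be made for the untreated groups. Median scaling moved the median of all probes by 0.15 for KBrO3 and 0.32 for co-exposure at 24 hr, −0.14 for co-exposure at 4 hr and 0.11 for BPA at 24 hr. Dim signal limits Rel, which was not tested in the first set. For the second set normexp used the median signal of a spot, since its files hold no mean signal, and 3 arrays a group limit precision throughout.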
